A study of Oryza sativa with 4 samples.

Results

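The deposited table lists 287 genes of rice young panicles, and 68 of them are described here, those that were abundant in control plants and lower in the OX*OsAFB6* mutant. A gene was a member when its mean was at least 1000 normalized reads in control plants and was lower in OX*OsAFB6*. A normalized read is a read counted on a gene, divided by the size factor of its library, which scales libraries of different depth to each other. Of the 74 listed genes that met these conditions, 6 were left out, either by identifier or because the description named a homeobox or a part of the photosynthetic apparatus. The members were thus chosen by the control mean and by the direction between the genotype means, and their lower level in OX*OsAFB6* is a description and was not tested. Of all listed genes, 79.8% had a lower mean in OX*OsAFB6*, against 68 of 68 members, a share that the choice fixed.

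RNA came from young panicles below 1 mm, dissected at the transition to the reproductive stage from 80 OX*OsAFB6* plants and 80 control plants of the japonica variety Zhonghua 11. The paper reports later heading of the mutant than of control plants, so panicles of equal length could come from plants of different age. Dissection dates by genotype are not given in the sources used here, so plant age and season cannot be told apart from genotype. The panicles of each genotype were split into 2 libraries, so the libraries of a genotype share a collection and leave out variation between growths. The mutant line arose from transformation with a construct meant to overexpress *CCT05*, a gene whose transcript the paper did not find raised in this line. OX*OsAFB6* plants carry 1 transgenic insertion upstream of *OsAFB6* that raises its expression, so the mutant is 1 insertion event in a transformed background. Control plants are described in the sample labels as the negative plants of that event, and in the study's methods as regenerated from calli without foreign DNA.

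*OsAFB6* belongs to the TIR1/AFB family of F-box proteins, which bind auxin and bring Aux/IAA repressors to a ubiquitin ligase for breakdown, so that auxin response factors can act. A panicle of this size consists mainly of the inflorescence meristem and its branch primordia, dividing tissue that draws sugars, amino acids and water from the rest of the plant. In growing plant cells proton pumps and water channels drive the uptake of solutes and water, and asparagine and other amino acids bring in nitrogen. No listed gene was matched to *OsAFB6* by name. The only listed gene described as an auxin signaling F-box protein, OS02G0178100, had a mean of 49357 normalized reads in OX*OsAFB6* and 15747 in control plants. Its identifier lies on chromosome 2 and its description names the chromosome 3 locus Os03g0187500, so it did not serve as a check of the overexpression. The paper's locus for *CCT05*, the gene of the inserted construct, is also on chromosome 2. Whether OS02G0178100 is *CCT05* could not be told.

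The table gives 1 mean per genotype, from which the whole reads of each library were recovered. In 65 of the 68 members 1 set of reads only gave the means, and in the other 3 the control libraries could not be told apart from a second solution, so only their control mean is given. Size factors of 1.01 and 1.14 were recovered for OX*OsAFB6* and of 0.887 and 0.977 for control plants. Values of a genotype are given below in this order, the library with the smaller size factor before that with the larger. Over the 65 members 77306 and 94189 reads were counted in OX*OsAFB6*, against 225462 and 236438 in control plants. Single members had between 134 and 22719 reads in a library, which gave a counting standard error of the log2 ratio between 0.0136 and 0.0707. This covers counting error only, and how deep the libraries were in all is unknown. Means are not divided by gene length, so an order of members by mean is an order of reads and not of transcripts, and longer genes reach 1000 normalized reads more easily.

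Members had means between 249 and 13053 normalized reads in OX*OsAFB6* (median 749) and between 1007 and 35345 in control plants (median 2488). Their summed mean was 112475 in OX*OsAFB6* and 341407 in control plants, 3.04-fold lower. They held 41.4% of the normalized reads of all listed genes in OX*OsAFB6* and 72.7% in control plants. In OX*OsAFB6* the gene OS02G0178100 alone held 49357 of the 271759 normalized reads of listed genes. The choice of lower genes with a high control mean also favours a larger share of the members in control plants. The median log2 ratio of OX*OsAFB6* over control was -1.60, with a range of -3.76 to -1.24. It was -1.68 over all listed genes with a ratio, which include 58 higher genes, and -1.82 over all lower genes with a ratio. Over the other lower genes it was -1.91, but these had a median control mean of 277 only, so the sets differ in level. Between 2-fold and 3-fold lower were 33 members, between 3-fold and 4-fold 19, and at least 4-fold 16. Most members were thus 2-fold to 4-fold lower, and the 8 members with the highest control means had a median log2 ratio of -1.40.

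**Figure D1:**
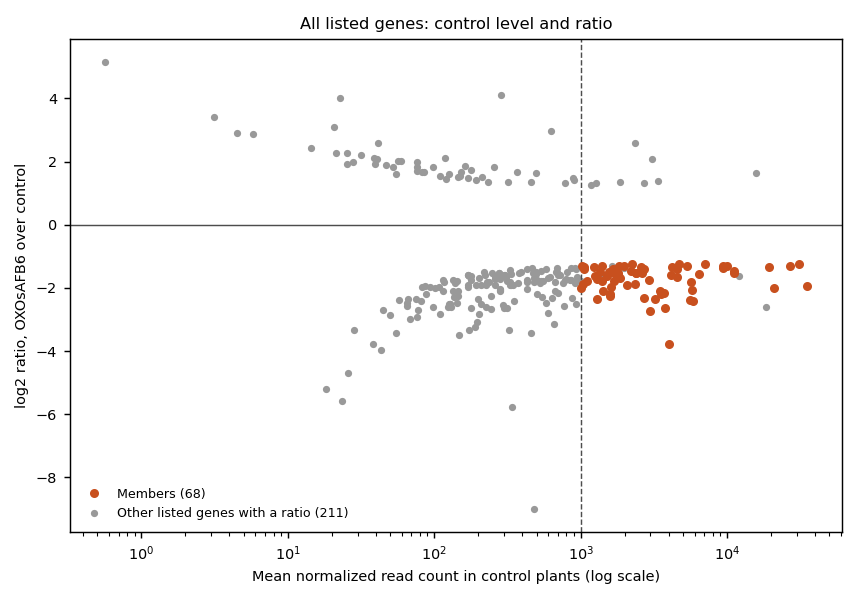
Each point is a listed gene, plotted by its mean normalized read count in control plants (log scale) and its log2 ratio of OXOsAFB6 over control. The 68 members lie right of the dashed line at 1000 and below 0, between -3.76 and -1.24, and the gene at the bottom of the members is OS09G0554200.

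Between genotypes the libraries did not overlap in any of the 65 members with resolved reads, and the same held for 283 of 283 listed genes with resolved reads (100%), which the authors had selected for their difference. The lowest control library exceeded the highest OX*OsAFB6* library by 1.84-fold at the least, in OS03G0789433, by a median of 2.51-fold, and by over 2-fold in 59 of 65 members. Over all listed genes with resolved reads, the nearest libraries of the 2 genotypes were a median of 2.84-fold apart. They were over 2-fold apart in 257 of 283, so this separation does not set the members apart. For each choice of 1 library per genotype the median log2 ratio lay between -1.83 and -1.52. In such bulk samples, fewer cells of a type and less RNA per cell cannot be told apart. The 4 listed genes taken as panicle meristem genes, *LAX*, *MADS34*, *FL* and *SPL8*, were present in each library and all 4 were higher in the mutant. Their summed means were 8157 in OX*OsAFB6* and 3165 in control plants. By library their sum was 7773 and 8542 in OX*OsAFB6*, against 2424 and 3906 in control plants. Most of the sum was *FL* alone, with means of 6846 in OX*OsAFB6* and 2725 in control plants. The 8 listed genes described as photosynthetic, which mark green tissue, were all lower, against 79.8% of all listed genes. Their sums were 2261 and 2711 in OX*OsAFB6* and 7612 and 6758 in control plants, and none was at 0. The part of these shifts in the levels of the members was not tested.

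Of the 68 members, 29 had a name or description that gives a function, and these had a median log2 ratio of -1.53. They comprised secreted and defence-related proteins, membrane transport proteins, metabolic enzymes, kinases with light sensing and F-box proteins, transcription factors and zinc finger proteins, and 3 others. The other 39 had no stated function and a median log2 ratio of -1.61.

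**Figure D2:**
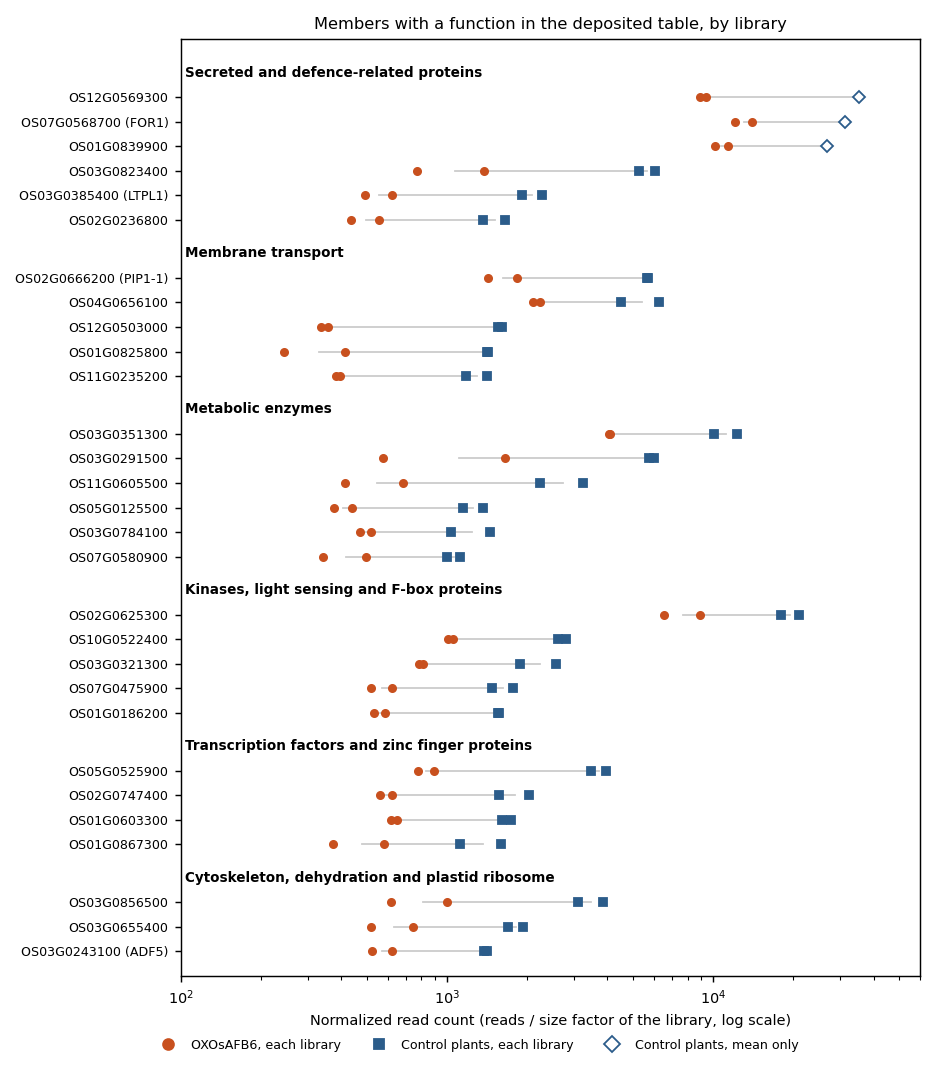
Normalized read counts (log scale) of the 29 members with a stated function, in groups, with circles for the OXOsAFB6 libraries, squares for the control libraries and open diamonds where only the control mean is known. Grey lines join the genotype means. Both circles lie left of both squares in each row with squares, and the circles of OS03G0291500 stand farthest from each other, at 573 and 1647.

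The 3 members with the highest control means were genes of secreted or cell wall proteins tied to defence. OS12G0569300 encodes a thaumatin-like protein, a family of small secreted proteins induced by pathogens, and its description also names cytokinin binding. It had 9400 and 8937 normalized reads in the OX*OsAFB6* libraries, with a mean of 9168 in OX*OsAFB6* and 35345 in control plants (3.86-fold lower). *FOR1* (OS07G0568700) encodes polygalacturonase inhibitor 1, a leucine-rich repeat protein that binds fungal pectin-degrading enzymes and is known in rice to affect floral organ number. It had 12076 and 14031 normalized reads in the OX*OsAFB6* libraries, with a mean of 13053 in OX*OsAFB6* and 31218 in control plants (2.39-fold lower). OS01G0839900, the other thaumatin family member, had 10120 and 11326 normalized reads in the OX*OsAFB6* libraries, with a mean of 10723 in OX*OsAFB6* and 26758 in control plants (2.50-fold lower). In these 3 genes every OX*OsAFB6* library lay far below the control mean, and the libraries of the mutant were close to each other.

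Further secreted proteins were lower as well. OS03G0823400 encodes a Bowman-Birk inhibitor of serine proteases, found in seeds and in wounded tissue. It had 770 and 1377 normalized reads in OX*OsAFB6*, against 6014 and 5248 in control plants, and its mean was 5.24-fold lower. *LTPL1* (OS03G0385400), a lipid transfer protein-like gene whose relatives carry lipids across the cell wall, had 620 and 489 normalized reads in OX*OsAFB6* and 1901 and 2262 in control plants (3.76-fold lower). OS02G0236800, a peroxidase described as bacterial-induced, had 553 and 434 normalized reads in OX*OsAFB6* and 1365 and 1653 in control plants (3.06-fold lower). Only the protease inhibitor had mutant libraries over 1.5-fold apart in this group. The 6 genes together summed to 35066 in OX*OsAFB6* and 102544 in control plants, with a median log2 ratio of -1.76. Of the listed genes, 2 are described as thaumatin family, both members and both lower. Another 3 are described as peroxidases, of which all 3 were lower and 1 is a member, where 79.8% of all listed genes were lower.

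Membrane transport proteins formed a group of 5 members. OS04G0656100 encodes a plasma membrane ATPase, the proton pump that sets the gradient other carriers use, and had 2240 and 2097 normalized reads in OX*OsAFB6* and 4488 and 6258 in control plants (2.48-fold lower). *PIP1-1* (OS02G0666200), an aquaporin of the plasma membrane, had 1418 and 1827 normalized reads in OX*OsAFB6* and 5691 and 5611 in control plants (3.48-fold lower). Its control libraries were nearly equal and lay at least 3.07-fold above the mutant libraries, whereas the control libraries of the proton pump gene were 1.39-fold apart. Carriers of nitrogen compounds made up the rest. OS11G0235200, a nitrate transporter NTL1 of the POT family, had 382 and 396 normalized reads in OX*OsAFB6* and 1412 and 1171 in control plants (3.32-fold lower). OS01G0825800, an amino acid transporter-like gene, had 244 and 414 normalized reads in OX*OsAFB6* and 1416 and 1425 in control plants (4.32-fold lower). OS12G0503000, a ureide permease, whose Arabidopsis relatives carry allantoin and uracil, had 335 and 356 normalized reads in OX*OsAFB6* and 1608 and 1545 in control plants (4.57-fold lower). The ureide permease and the amino acid transporter-like gene had the largest differences of the group, and all 5 genes summed to 4854 in OX*OsAFB6* and 15313 in control plants.

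Among all listed genes, 15 were described as transporters, channels or pumps of any kind, 13 lower and 2 higher in OX*OsAFB6*, and 5 of the 15 are members. All 3 genes for nitrate or nitrite transporters or the POT family were lower, as were both genes for amino acid or ureide transport. Aquaporins went both ways, with 2 lower and 1 higher, and so did MATE efflux proteins, with 2 lower and 1 higher and no member. Read against the 79.8% of all listed genes that were lower, these counts do not set transport apart.

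Metabolic enzymes included the nitrogen enzyme with the lowest ratio among members with a function. OS03G0291500 encodes asparagine synthetase 1, which moves the amide nitrogen of glutamine to aspartate and so makes a transport form of nitrogen. Counted reads were 579 and 1880 in OX*OsAFB6*, against 5331 and 5611 in control plants. Normalized, it had 573 and 1647 in OX*OsAFB6* and 6009 and 5744 in control plants, a mean of 1110 against 5876 (5.29-fold lower, log2 ratio -2.40). The control libraries were close, whereas the mutant libraries were 2.87-fold apart, the widest gap within a genotype among the 65 members. With 1 OX*OsAFB6* library left out, the log2 ratio was -3.36 or -1.84, depending on the library, so the size of this difference rested on which mutant library was used.

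Enzymes of lipid and amino acid breakdown were lower too. OS11G0605500, an acyl-CoA oxidase, which opens fatty acid beta-oxidation in peroxisomes, had 414 and 680 normalized reads in OX*OsAFB6* and 3230 and 2222 in control plants (4.99-fold lower). OS05G0125500, mitochondrial isovaleryl-CoA dehydrogenase of leucine breakdown, had 375 and 439 normalized reads in OX*OsAFB6* and 1366 and 1143 in control plants (3.08-fold lower). OS03G0784100, a patatin-like phospholipase that frees fatty acids from membrane lipids, had 469 and 517 normalized reads in OX*OsAFB6* and 1034 and 1448 in control plants (2.52-fold lower). The acyl-CoA oxidase differed most among these, and its libraries were also the farthest apart. In carbon metabolism, OS03G0351300, a glycosyl hydrolase of family 14, the family of beta-amylases that cut maltose from starch, had 4088 and 4060 normalized reads in OX*OsAFB6* and 10040 and 12245 in control plants (2.74-fold lower). OS07G0580900, a putative geranylgeranyl diphosphate synthase, which makes a precursor of carotenoids, chlorophyll and gibberellins, had 341 and 494 normalized reads in OX*OsAFB6* and 1002 and 1114 in control plants (2.53-fold lower). All 6 enzymes summed to 7049 in OX*OsAFB6* and 23299 in control plants, with a median log2 ratio of -1.54. All 4 listed genes described as glycosyl hydrolases or glucanases were lower, against 79.8% of all listed genes, and 1 of the 4 is a member.

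Among kinases, OS02G0625300 had the most reads. It encodes phosphoenolpyruvate carboxylase kinase, which phosphorylates the carboxylase that refills the citric acid cycle and makes it less sensitive to malate. It had 8905 and 6499 normalized reads in OX*OsAFB6*, against 21048 and 17937 in control plants, and its mean was 2.53-fold lower. OS07G0475900, a putative serine/threonine protein kinase, had 518 and 622 normalized reads in OX*OsAFB6* and 1763 and 1472 in control plants (2.84-fold lower). Listed protein kinases numbered 9, of which 7 were lower and 2 higher, near the 79.8% of all listed genes that were lower. OS01G0186200 encodes PAS/LOV protein B, named after an Arabidopsis protein with a blue light-sensing LOV domain. It had 531 and 583 normalized reads in OX*OsAFB6* and 1562 and 1550 in control plants (2.79-fold lower). The F-box genes OS10G0522400 and OS03G0321300 encode putative substrate adaptors of ubiquitin ligases, the same broad class as *OsAFB6*. OS10G0522400 had 1007 and 1052 normalized reads in OX*OsAFB6* and 2791 and 2610 in control plants (2.62-fold lower). OS03G0321300 had 810 and 786 normalized reads in OX*OsAFB6* and 1883 and 2565 in control plants (2.79-fold lower). In this group of 5 the log2 ratios lay close to each other, between -1.50 and -1.34, and no member had libraries of a genotype over 1.5-fold apart.

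Putative regulators of transcription or of RNA made up 4 members. OS01G0603300, described as MCB2, of a MYB-related family named in barley for binding the promoter of a light-harvesting gene, had 649 and 612 normalized reads in OX*OsAFB6* and 1737 and 1610 in control plants (2.65-fold lower). OS02G0747400, a TCP transcription factor, of a family that governs cell division in growing organs and axillary buds, had 620 and 561 normalized reads in OX*OsAFB6* and 1561 and 2028 in control plants (3.04-fold lower). OS01G0867300, an abscisic acid (ABA) responsive element binding factor of the bZIP type, had 373 and 579 normalized reads in OX*OsAFB6* and 1595 and 1120 in control plants (2.85-fold lower). For this factor the lowest control library exceeded the highest mutant library by 1.93-fold only, so it was among the 6 members with a gap under 2-fold. OS05G0525900, CCCH zinc finger protein 37, of a family that often binds RNA, had 776 and 892 normalized reads in OX*OsAFB6* and 3483 and 3964 in control plants (4.46-fold lower). It differed most in the group, with a gap of 3.91-fold between the nearest libraries. All 4 listed zinc finger genes were lower, against 79.8% of all listed genes. Word searches for MYB or MCB, TCP and ABA found no other listed gene. Those for MYB or MCB and for TCP matched capitals only, so other spellings would be missed.

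The remaining members with a function were 3 genes of unlike roles. *ADF5* (OS03G0243100) encodes actin-depolymerizing factor 5, of a family that severs or bundles actin filaments, and had 520 and 621 normalized reads in OX*OsAFB6* and 1380 and 1412 in control plants (2.45-fold lower). OS03G0655400, a dehydrin, of a group of disordered proteins that accumulate in drying tissue and seeds, had 515 and 745 normalized reads in OX*OsAFB6* and 1931 and 1694 in control plants (2.88-fold lower). OS03G0856500, described as a putative plastid-specific 30S ribosomal protein 1, had 616 and 999.6 normalized reads in OX*OsAFB6* and 3834 and 3098 in control plants (4.29-fold lower). It was the only lower gene among the 4 listed genes described as ribosomal proteins. The other 3, of the large cytosolic subunit, were higher in OX*OsAFB6*.

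Members without a stated function numbered 39, with summed means of 50312 in OX*OsAFB6* and 157438 in control plants. Of these, 12 had no description at all and 27 had one that names only a clone, a locus or an uncharacterized protein. Genes without a description were 17.6% of the members and 16.4% of the listed genes.

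**Figure D3:**
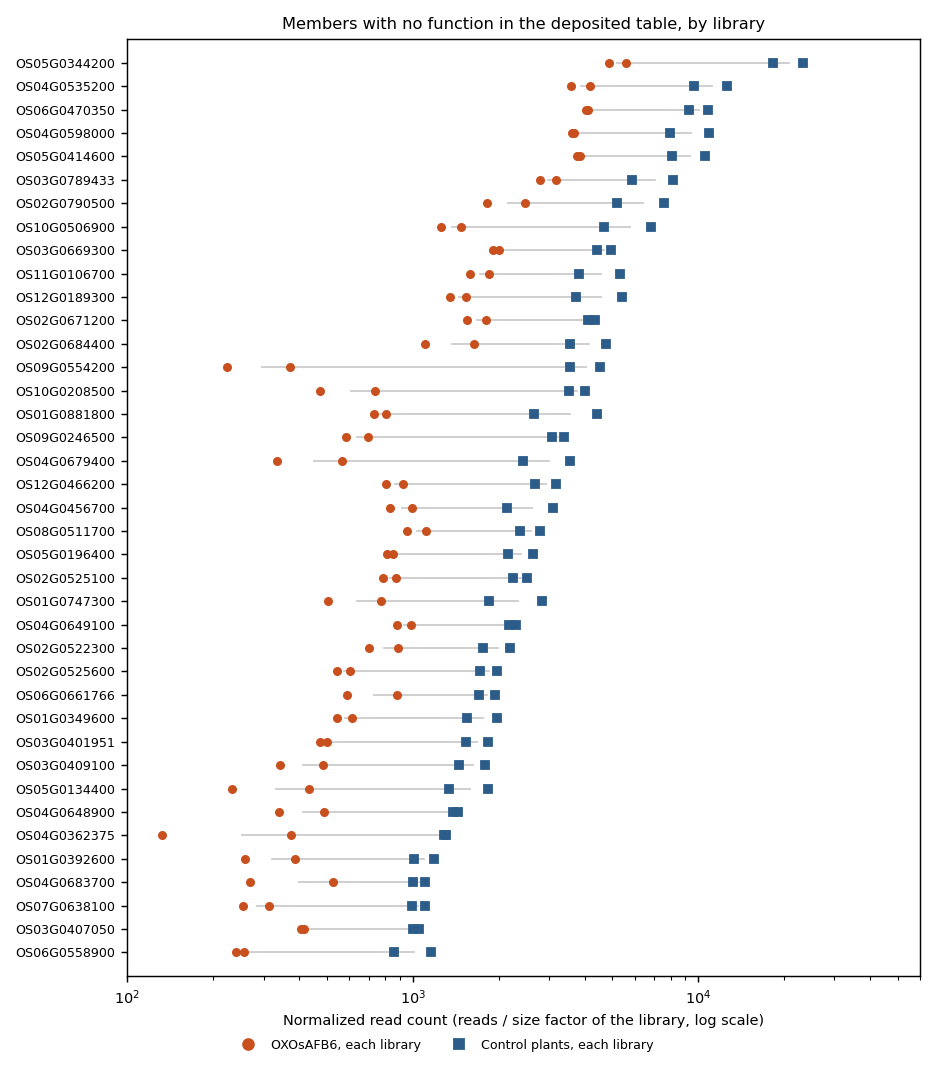
Normalized read counts (log scale) of the 39 members without a stated function, ordered by control mean from the top, with circles for the OXOsAFB6 libraries, squares for the control libraries and grey lines between the genotype means. OS05G0344200 leads the order with a control mean of 20801, and the longest line belongs to OS09G0554200, at 297 in OXOsAFB6 and 4034 in control plants.

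The lowest log2 ratios of all members were found among these genes. Counted reads of OS09G0554200 were 226 and 423 in OX*OsAFB6*, against 4005 and 3471 in control plants. Normalized, it had 224 and 371 in OX*OsAFB6* and 4514 and 3553 in control plants, with means of 297 and 4034 (13.6-fold lower, log2 ratio -3.76). Its lowest control library exceeded its highest mutant library by 9.59-fold, so the separation was far wider than the spread within either genotype. OS04G0679400 had 336 and 563 normalized reads in OX*OsAFB6* and 3548 and 2436 in control plants (6.66-fold lower, log2 ratio -2.73). OS10G0208500 had 474 and 736 normalized reads in OX*OsAFB6* and 4014 and 3514 in control plants (6.22-fold lower, log2 ratio -2.64). In all 3 genes the mutant library with the larger size factor was the higher one, and the control library with the larger size factor the lower one. OS09G0246500 had 581 and 696 normalized reads in OX*OsAFB6* and 3077 and 3372 in control plants (5.05-fold lower). OS05G0134400 had 232 and 434 in OX*OsAFB6* and 1340 and 1841 in control plants (4.78-fold lower), and OS04G0362375 had 133 and 373 in OX*OsAFB6* and 1304 and 1284 in control plants (5.12-fold lower). The control libraries of OS04G0362375 were nearly equal, and its mutant libraries 2.81-fold apart, so that its log2 ratio was -3.29 or -1.79 with 1 mutant library left out.

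Among the most abundant members without a function, OS05G0344200 had 4857 and 5566 normalized reads in OX*OsAFB6* and 18344 and 23258 in control plants (3.99-fold lower). OS04G0535200 had means of 3880 in OX*OsAFB6* and 11156 in control plants (2.88-fold lower), and OS06G0470350, without a description, 4081 and 10042 (2.46-fold lower). The next genes by control mean, OS04G0598000, OS05G0414600 and OS03G0789433, were 2.61-fold, 2.46-fold and 2.35-fold lower. OS03G0789433 had the ratio nearest to 0 of all members, with 3182 and 2787 normalized reads in OX*OsAFB6* and 5871 and 8185 in control plants (log2 ratio -1.24). OS10G0506900 was 4.21-fold lower, with 1256 and 1478 normalized reads in OX*OsAFB6* and 6825 and 4681 in control plants. OS01G0881800, without a description, was 4.62-fold lower, with 803 and 730 in OX*OsAFB6* and 2661 and 4422 in control plants. Of the 6 genes without a function that had the highest control means, 5 were thus 2-fold to 3-fold lower, whereas the 5 genes at least 5-fold lower had control means of 4034 or less.

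At the threshold, the members with the lowest control means were OS06G0558900 (249 normalized reads in OX*OsAFB6* and 1007 in control plants), OS03G0407050 (412 and 1028) and OS07G0638100 (284 and 1047). Just outside it lay OS02G0611800 (290 in OX*OsAFB6* and 999.0 in control plants), OS03G0239300 (296 and 942) and OS06G0561000 (166 and 937). Log2 ratios were between -2.02 and -1.32 inside and between -2.50 and -1.67 outside.

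How far the libraries of a genotype lay apart did not enter the rule for members. The authors had listed only genes that passed their test, which is not given and may have used this spread. The median fold between libraries was 1.17 in OX*OsAFB6* and 1.19 in control plants over the 65 members, against 1.30 in OX*OsAFB6* and 1.25 in control plants over the other lower genes, which had fewer reads. More than 1.5-fold apart were 13 members in OX*OsAFB6* and 2 in control plants, 14 members in all. In OX*OsAFB6* the widest were OS03G0291500 and OS04G0362375, followed by OS04G0683700 (268 and 527 normalized reads, 1.97-fold), OS05G0134400 (1.87-fold) and OS03G0823400 (1.79-fold). In all 5 the library with the larger size factor was the higher one. Over all members that library was the higher one in 47 of 65, against 91 of 153 other lower genes with mutant reads. In control plants OS01G0881800 (1.66-fold) and OS01G0747300 (2844 and 1846 normalized reads, 1.54-fold) were the widest, and in opposite directions. The control library with the smaller size factor was the higher one in 41 of 65 members, against 98 of 161 other lower genes and 7 of 57 higher genes. In OX*OsAFB6* the 13 members came from 6 of the 7 groups, with 7 genes without a function, 2 enzymes and 1 gene each of the secreted proteins, the transport proteins, the regulators and the 3 genes of unlike roles.

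**Figure D4:**
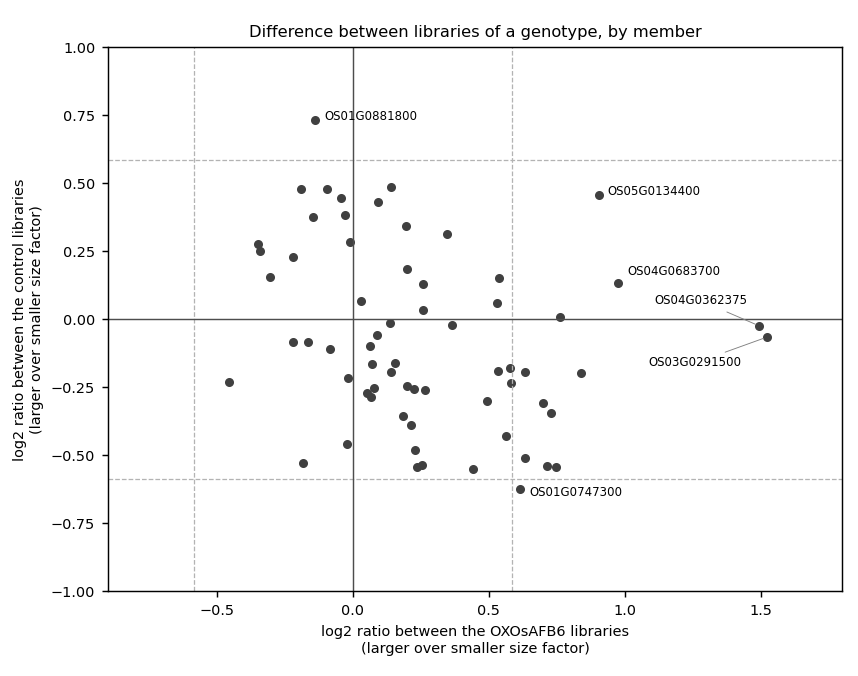
Each point is 1 of the 65 members with resolved reads, plotted by its log2 ratio between the OXOsAFB6 libraries and between the control libraries, the library with the larger size factor over that with the smaller. Dashed lines mark 1.5-fold; OS03G0291500 and OS04G0362375 lie farthest right, at 2.87-fold and 2.81-fold.

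By identifier the members lay on all 12 chromosomes. Chromosome 3 held 14 members (20.6%) and 47 listed genes (16.4%), chromosome 2 held 10 members, and chromosomes 1 and 4 held 9 each. Chromosome 4 had 13.2% of the members and 6.97% of the listed genes, and chromosome 8 had 1 member. Members with another listed gene within 500 identifier numbers, a sign of neighbouring genes, numbered 9 (13.2%), against 26 listed genes (9.06%). In 2 pairs of neighbours both genes were members. OS04G0648900 was next to OS04G0649100, with means of 414 in OX*OsAFB6* and 1410 in control plants for the lower-numbered gene and of 935 and 2235 for the other. OS02G0525100 (831 in OX*OsAFB6* and 2385 in control plants) was near OS02G0525600 (572 and 1846). The member peroxidase OS02G0236800 was next to another listed peroxidase, OS02G0236600, which had means of 73.9 in OX*OsAFB6* and 223 in control plants. In all, the listed neighbour was lower for 7 of the 9 members, near the 79.8% of all listed genes that were lower. This count takes the 2 pairs of members from both sides, and their direction was fixed by the choice. Among the 7 was OS01G0867300, whose neighbour OS01G0867400 had means of 41.8 in OX*OsAFB6* and 143 in control plants. OS03G0407050 was likewise next to OS03G0407100, with means of 66.8 in OX*OsAFB6* and 282 in control plants. For the other 2 members the neighbour went the opposite way. OS04G0598000 had means of 3631 in OX*OsAFB6* and 9458 in control plants, and its neighbour *FL* (OS04G0598300), the rice LEAFY homologue that acts in panicle branching, 6846 in OX*OsAFB6* and 2725 in control plants. The proton pump gene OS04G0656100 was near *SPL8* (OS04G0656500), an SBP-box transcription factor gene, which had means of 602 in OX*OsAFB6* and 213 in control plants. Whether counting used strand is not stated, so reads of overlapping neighbours could have been shared. The descriptions of OS12G0466200 and OS06G0558900 name another locus than their identifier, so for these the gene is uncertain.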

How the data were processed

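RNA of 4 young panicle libraries, 2 per genotype, was sequenced on an Illumina instrument after TruSeq preparation. The submitters' processing notes name Bowtie 0.12.2 and the builds IRGSP-1.0 and mm8, with no role. The annotation, counting tool and test are not given in the sources used here. The authors deposited 1 table with 1 signal per gene and genotype, headed RPKM, although the values are the mean over 2 libraries of reads divided by a size factor, since 1 read adds the same amount for every gene. Log2 fold changes and p-values of the authors' own comparison were not used. The authors listed only genes that passed their test, so no test was run here.

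Whole reads per library were recovered with Python 3.11.15, numpy 2.4.6, pandas 2.3.3 and scipy 1.17.1, and plots were made with matplotlib 3.10.9. Reads of a gene were taken as resolved where a unique pair matched the printed 10 significant digits, allowing 4 standard errors in what a read is worth. In OX*OsAFB6* 286 means and in control plants 284 resolved, and 0 had no pair. Tested on simulated data of 287 genes, 283 resolved, all 283 to the true reads. The simulation used the recovered value of 1 read and set low reads in the lowest genes so that this value could be found. It thus cannot check how that value was found in the deposited means. Recovered libraries carry no replicate number. Genotype means are the authors', with no SD.

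Members and lists were chosen with earlier results of these data known. Library values are given for members with a gene name, the 5 highest by control mean, the 5 lowest by log2 ratio, the 5 with the widest gap between libraries and, beyond that rule, members with a stated function. A few other members and neighbours were named after their values were seen. The RefSeq table of assembly ASM3414082v1 matched 0 members by identifier and 4 by name, so no coordinates or sequences were used. Alternatives were other thresholds, pseudocounts, no size factors, each library left out and, chosen after seeing the data, resolved members only and a wider rounding tolerance.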

Additional observations from a re-analysis of the deposited data

How the results depend on the processing

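With a control mean of at least 500 or 2000 in place of 1000, 103 or 40 genes were members, against 68. Without size factors, reads summed over the libraries of a genotype gave a median log2 ratio of -1.39 and a summed log2 ratio of -1.43 over the 65 resolved members, against a median of -1.60 and a summed log2 ratio of -1.64 with size factors over the same 65. A pseudocount of 100 gave a median of -1.46. When each library was left out, the median lay between -1.75 and -1.52 and the summed ratio between -1.70 and -1.59. Of the 14 members whose libraries differed over 1.5-fold, 2 passed a limit of 2-fold. The cause of these shifts beyond the settings themselves was not tested. Other thresholds, no genes left out, a pseudocount of 10 and resolved members only left the median between -1.67 and -1.55. The last of these and a wider rounding tolerance, which left 65 members resolved, were chosen after seeing the data.

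Leaving out 1 library reversed 0 of 260 values of single members, which lay between -4.17 and -0.98, but groups that do not overlap fix that direction. It moved the ratio of the genotypes itself by over 1.5 times in OS03G0291500 (log2 ratio -3.36 to -1.84) and OS04G0362375 (log2 ratio -3.29 to -1.79). No paired analysis was possible because the means carry no replicate number and no test was run. Depth limits single members little, since each had at least 134 reads in a library, but without the unlisted genes the size factors could not be checked.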
